A study of Homo sapiens with 18 samples.

Results

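Keratins are the intermediate filament proteins of epithelial cells. Here, 9 keratin genes were examined in 3 pancreatic cancer cell lines with and without knockdown of OFD1. OFD1 is a protein of the centriole and the base of the primary cilium. The members were the rows of the expression table with the symbols KRT7, KRT8, KRT10, KRT17, KRT18, KRT19, KRT80, KRT81 and KRT86, that is, 9 of 26668 gene symbols. RNA-seq had been carried out on 18 libraries from the established lines PANC-1, MIA PaCa-2 and PaTu 8988T, with 3 control and 3 OFD1 knockdown libraries per line. Knockdown samples carried a doxycycline-inducible shRNA against OFD1 (shOFD1) and were collected 72 h after doxycycline was added. Control samples are titled shControl and labelled as untreated and wild type, with no time given, whereas the study's methods describe the inducible shOFD1 cells given DMSO. All cultures were grown in DMEM with fetal bovine serum. Every knockdown culture and no control culture received doxycycline, so the drug and the knockdown cannot be told apart. Which hairpin was used for sequencing and whether the cells were clones are not given in the sources used here, and nothing in them states that the 3 libraries of a group came from separate cultures. The p-values therefore measure the spread between libraries, which may be technical.

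Keratin filaments are built from pairs of 1 type I and 1 type II protein, and the partners of a pair stabilise each other. KRT8 (type II) and KRT18 (type I) form the basic pair of simple epithelia, and pancreatic ducts add KRT7 (type II) and KRT19 (type I). KRT10 and KRT17 are type I keratins known best from differentiating and from stressed or basal epidermis, respectively. KRT80 is an epithelial type II keratin, and KRT81 and KRT86 are type II keratins of the hair shaft. The filaments are tied to the cell surface by desmosomes and plakin linker proteins, and the make-up of the network is widely used to describe the type of a carcinoma.

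The genes lie in clusters. In GENCODE v29 on GRCh38, the type II genes and KRT18 are on chromosome 12 and the other type I genes are on chromosome 17. KRT80 spans chr12:52168996-52192000 (minus strand), KRT7 chr12:52232520-52252186 (plus), KRT86 chr12:52249300-52309163 (plus), KRT81 chr12:52285913-52291534 (minus), KRT8 chr12:52897187-52949954 (minus) and KRT18 chr12:52948871-52952901 (plus). KRT10 spans chr17:40818117-40822595, KRT19 chr17:41523617-41528308 and KRT17 chr17:41619441-41624842, all on the minus strand. KRT81 lies wholly within the span of KRT86 on the other strand, without shared exon bases. The spans of KRT7 and KRT86 overlap by 2887 bases on the same strand, also without shared exon bases in this annotation. KRT8 and KRT18 share 525 exon bases on opposite strands in this annotation. The annotation used for counting, and whether reads were counted by strand, are not given in the sources used here.

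KRT81 and KRT86 are shown as sequence because their coding regions are alike and their reads could have been split between them. Over the longest coding sequence of each gene (1515 and 1458 bases), 90.1% of aligned positions were identical, and the longest stretch without a difference was 605 bases. The first 120 bases of that stretch, coding bases 61 to 180 in exon 1 of 9, are the same in KRT81 (chr12:52291286-52291405, minus strand) and KRT86 (chr12:52301977-52302096, plus strand).
Shared by KRT81 and KRT86: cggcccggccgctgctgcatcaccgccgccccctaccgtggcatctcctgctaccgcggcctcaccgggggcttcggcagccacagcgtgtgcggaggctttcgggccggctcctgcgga
The 40 aligned bases with the most differences lie in exon 9 of 9, the last exon, in KRT81 at chr12:52286393-52286432 and in KRT86 at chr12:52308468-52308507. Capitals mark the 15 bases that differ between the genes.
KRT81: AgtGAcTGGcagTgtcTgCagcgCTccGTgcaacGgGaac
KRT86: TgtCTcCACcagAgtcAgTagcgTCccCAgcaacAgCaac
By contrast, the coding sequences of KRT8 and KRT18 were 48.7% identical, with a longest shared stretch of 15 bases.

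Values are FPKM, in which the reads on a gene are divided by gene length and library size. The library sizes, inferred from the FPKM values, were between 32486479 and 39797537 reads. OFD1 was lower in every knockdown library than in every control library of its line, with a log2 fold change of -1.07 for PANC-1, -0.61 for MIA PaCa-2 and -1.10 for PaTu 8988T. Of 10 epithelial markers, 6 averaged 1 FPKM or more in PANC-1, 2 in MIA PaCa-2 and 1 in PaTu 8988T. E-cadherin (CDH1) averaged 7.54, 0.0071 and 0.19 FPKM in these lines, so this defining epithelial marker was near 0 in MIA PaCa-2 and PaTu 8988T. MIA PaCa-2 control replicate 2 stood apart from the other controls of its line in keratin levels and in OFD1 (2.27 FPKM against 3.09 and 3.20). The changes of KRT8, KRT10, KRT19 and KRT80 in that line are given with and without it. Most other MIA PaCa-2 results, such as those of OFD1, KRT15 and the gene lists, are given with it only.

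In all 3 lines, KRT8 and KRT18 were the most abundant of the 9 keratins (plot of keratin levels in every library). The gene length behind the FPKM values was the same in the 3 lines for 8 of 9 members and differed slightly for KRT80 (4366 bases in PANC-1, 4401 in the others), so levels are set side by side, although the lines may have been normalised separately and no test was made between lines on levels. In PANC-1 controls the order was KRT8 (420 ± 7.35 FPKM), KRT18 (333 ± 5.87), KRT19 (178 ± 5.01), KRT80 (28.3 ± 1.09), KRT10 (13.0 ± 0.740), KRT81 (5.54 ± 0.459), KRT7 (3.98 ± 0.455), KRT86 (0.397 ± 0.0562) and KRT17 (0.124 ± 0.0925, SD, n = 3 each). No neighbours in this order overlapped between libraries. In MIA PaCa-2 controls the first 3 places were the same, with KRT8 at 947 ± 210 FPKM, KRT18 at 746 ± 103 and KRT19 at 116 ± 21.9 (SD, n = 3 each). The ranges of KRT8 and KRT18 overlapped there, because of control replicate 2, as did those of KRT80 (11.7 ± 1.40) and KRT10 (8.98 ± 2.07). In PaTu 8988T controls KRT18 came first at 584 ± 2.11 FPKM, ahead of KRT8 at 470 ± 12.7, KRT80 at 26.5 ± 0.843 and KRT10 at 16.6 ± 1.12 (SD, n = 3 each). KRT19 was listed at 0 in 5 of 6 PaTu 8988T libraries, with 1 read in the other. The ductal pair KRT7 and KRT19 thus averaged above 1 FPKM together in PANC-1 and in neither other line, since KRT7 averaged 0.834 FPKM in MIA PaCa-2 and 0.299 in PaTu 8988T.

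**Figure D1:**
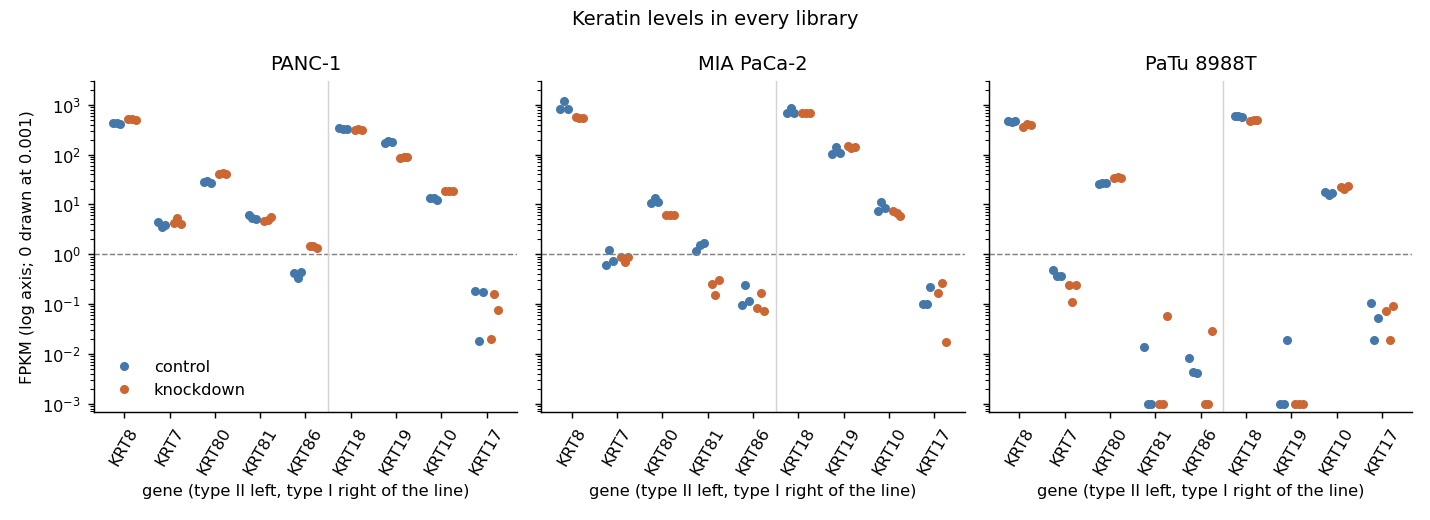
FPKM of the 9 keratins in each of 18 libraries on a log axis, by line, with control libraries in blue, knockdown libraries in orange and the dashed line at 1 FPKM. KRT8 and KRT18 lie at 316 FPKM or above in every library, KRT19 lies between 85.7 and 184 FPKM in PANC-1 and MIA PaCa-2 but at or next to 0 in PaTu 8988T, and KRT17 lies below 1 FPKM throughout.

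A mean of at least 1 FPKM over the 6 libraries of a line was required for the test, and 16 of the 27 combinations of member and line passed it. In PANC-1, 7 of 9 members were tested, all but KRT17 and KRT86. In MIA PaCa-2, 5 were tested (KRT8, KRT10, KRT18, KRT19, KRT80), and in PaTu 8988T 4 (the same without KRT19). KRT17 lay below 1 FPKM in all 18 libraries, with at most 15 reads in any of them. Knockdown and control were compared with limma on log2(FPKM + 0.1) within each line, with Benjamini-Hochberg adjustment over all genes tested.

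Among the type II keratins, KRT8, the obligate partner of simple epithelial filaments, rose in PANC-1 and fell in MIA PaCa-2 and PaTu 8988T. In PANC-1 its level was 425, 423 and 412 FPKM in the controls and 510, 508 and 494 FPKM in the knockdown libraries. All knockdown libraries were above all controls, by a log2 fold change of 0.26 (SE 0.0204, adjusted p = 1.46e-06). In MIA PaCa-2 it was 829, 1189 and 822 FPKM in the controls against 562, 551 and 548 FPKM after knockdown. The knockdown libraries lay close together and below all controls, of which replicate 2 was the highest. KRT8 fell there by 0.75 on the log2 scale (SE 0.142, adjusted p = 0.00707), and by 0.58 without control replicate 2 (adjusted p = 2.71e-08). In PaTu 8988T the controls had 469, 458 and 483 FPKM and the knockdown libraries 363, 409 and 396 FPKM. The groups did not overlap, and the fall was 0.27 on the log2 scale (SE 0.0474, adjusted p = 0.0019). Levels in these bulk libraries cannot tell fewer cells of a type from less RNA per cell.

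KRT80, the epithelial type II keratin next in abundance after KRT19 in PANC-1 controls, rose in PANC-1 and PaTu 8988T and fell in MIA PaCa-2. PANC-1 controls had 28.1, 29.5 and 27.4 FPKM and the knockdown libraries 40.4, 43.6 and 40.6 FPKM, a log2 fold change of 0.55 (SE 0.0421, adjusted p = 1.32e-06). PaTu 8988T controls had 25.5, 27.1 and 26.8 FPKM and the knockdown libraries 33.9, 34.9 and 34.2 FPKM, a log2 fold change of 0.37 (SE 0.0401, adjusted p = 0.000119). The groups were apart in both lines. MIA PaCa-2 controls had 10.7, 13.3 and 11.1 FPKM, and all knockdown libraries were lower, at 6.02, 6.22 and 6.23 FPKM. The log2 fold change of -0.91 (SE 0.109, adjusted p = 0.00131) was the lowest among the 5 members tested in MIA PaCa-2, and it was -0.81 without control replicate 2 (adjusted p = 9.69e-07).

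KRT7, the type II keratin of ducts, was tested in PANC-1 only. The controls had 4.45, 3.54 and 3.94 FPKM and the knockdown libraries 4.30, 5.37 and 3.96 FPKM, so the groups overlapped. The log2 fold change of 0.18 (95% interval -0.09 to 0.45, adjusted p = 0.196) did not pass the test. In MIA PaCa-2, where KRT7 was below 1 FPKM in 5 of 6 libraries, 64 to 128 reads were counted per control library and 72 to 90 per knockdown library, again overlapping. In PaTu 8988T KRT7 was below 1 FPKM in all 6 libraries, at 0.478, 0.362 and 0.365 FPKM in the controls (47, 34 and 36 reads) and 0.244, 0.108 and 0.238 FPKM after knockdown (24, 10 and 23 reads). Its groups did not overlap. Fitted without the filter on low values, the log2 fold change was -0.79 (adjusted p = 0.0721), and on the reads with limma-voom it was -1.08 (adjusted p = 0.0217), so its call depended on the method.

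The closely related hair keratins KRT81 and KRT86 are given together. In PANC-1, KRT81 had 6.05, 5.41 and 5.15 FPKM in the controls and 4.64, 4.97 and 5.50 FPKM after knockdown. These groups overlapped, and the log2 fold change of -0.13 (95% interval -0.32 to 0.05, adjusted p = 0.174) did not pass the test. KRT86, which averaged 0.915 FPKM and so just missed the filter, had 0.411, 0.335 and 0.444 FPKM in PANC-1 controls (97, 81 and 100 reads) and 1.46, 1.49 and 1.34 FPKM in the knockdown libraries (311, 319 and 302 reads). It was below 1 FPKM in all controls and above it in all knockdown libraries. Without the filter its log2 fold change was 1.63 (adjusted p = 6.73e-05), and on the reads it was 1.86, or 3.63-fold (adjusted p = 5.76e-11). Without a filter on low values, 51.8% of 16308 genes passed the adjusted p in PANC-1, 21.7% of 20604 in MIA PaCa-2 and 16.9% of 21498 in PaTu 8988T.

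KRT81 fell in MIA PaCa-2. Its controls had 1.17, 1.52 and 1.67 FPKM (88, 117 and 126 reads) and its knockdown libraries 0.254, 0.15 and 0.298 FPKM (19, 11 and 22 reads). All knockdown libraries were below 1 FPKM and all controls above it, while the mean of 0.844 FPKM kept KRT81 out of the filtered test. Without the filter it fell by 2.23 on the log2 scale (adjusted p = 0.0028), and on the reads by 2.64, a fold of 0.161 (adjusted p = 0.00139). KRT86 in MIA PaCa-2 had 25, 64 and 29 reads in the controls and 21, 41 and 18 after knockdown, and its groups overlapped. In PaTu 8988T neither gene exceeded 7 reads in any library. Values of both genes are uncertain wherever reads from their shared stretches were split or dropped, and the part of such reads in these changes was not tested. The gene length behind the KRT86 FPKM was 6548 bases, against 2394 exon bases in GENCODE v29, while KRT81 had 1929 bases in both. The other members differed from GENCODE too. KRT8 (1988 against 6881 bases), KRT18 (1497 against 3218) and KRT7 (2664 against 4093) were shorter, as were KRT17 and KRT19. KRT10 (2163 against 2144) and KRT80 were slightly longer. Reads counted for KRT86 may thus lie partly outside the GENCODE exons, and where they lie was not tested.

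**Figure D2:**
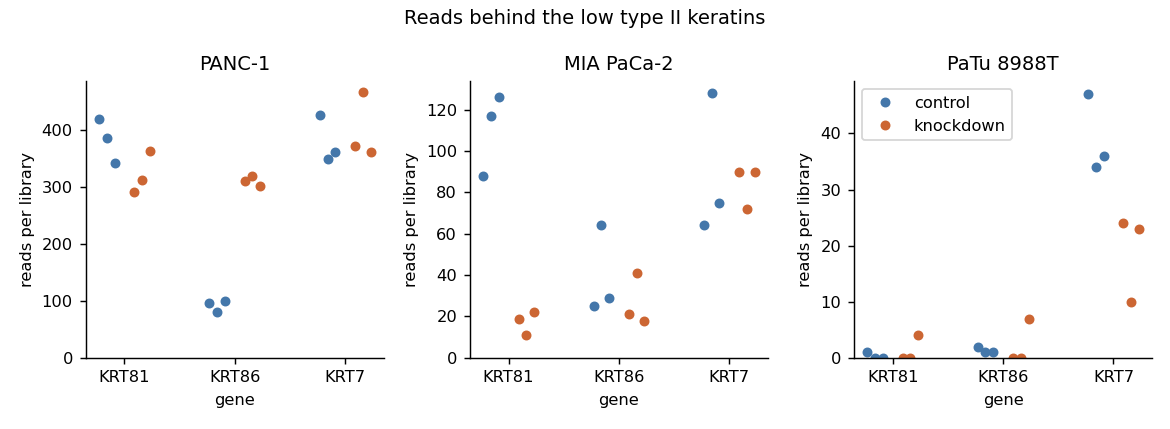
Reads per library on the low type II keratins KRT81, KRT86 and KRT7 in each line, each point 1 library, control in blue and knockdown in orange, with a scale of its own for each line. KRT86 rises from 81 to 100 reads to 302 to 319 reads in PANC-1, and KRT81 falls from 88 to 126 reads to 11 to 22 reads in MIA PaCa-2.

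Among the type I keratins, KRT18, the partner of KRT8, had the smallest log2 fold change of the tested members in PANC-1 and in MIA PaCa-2. In PANC-1 it had 339, 330 and 329 FPKM in the controls and 319, 321 and 316 FPKM after knockdown. The groups were apart but close, with a log2 fold change of -0.06 (SE 0.0194, adjusted p = 0.0154). This call was lost without a variance trend (adjusted p = 0.139), without control replicate 1 (0.065) and without knockdown replicate 3 (0.0507). In MIA PaCa-2 the controls had 686, 865 and 687 FPKM and the knockdown libraries 682, 671 and 680 FPKM. Apart from control replicate 2, all of these libraries lay within 671 to 687 FPKM, and the log2 fold change of -0.13 (95% interval -0.36 to 0.10, adjusted p = 0.315) did not pass the test. In PaTu 8988T the controls had 586, 583 and 582 FPKM and the knockdown libraries, all lower, 471, 497 and 486 FPKM. KRT18 fell there by 0.27 on the log2 scale (SE 0.0332, adjusted p = 0.000275), as much as KRT8 did in that line.

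KRT19, the type I keratin of ducts, fell in PANC-1 to about 0.501 of its control level. The controls had 174, 184 and 177 FPKM and the knockdown libraries 85.7, 91.5 and 90.3 FPKM. This gap, far wider than the spread within either group, gave a log2 fold change of -1.0 (SE 0.0314, adjusted p = 2.61e-09), which fell just short of the study's 2-fold threshold and passed it with median-of-ratios scaling (-1.05). In MIA PaCa-2 the controls had 102, 141 and 105 FPKM and the knockdown libraries 147, 137 and 141 FPKM. Control replicate 2 lay among the knockdown libraries, and the log2 fold change of 0.30 (95% interval -0.01 to 0.61, adjusted p = 0.11) did not pass. Without that library KRT19 rose by 0.45 on the log2 scale (adjusted p = 3.86e-06), and with upper-quartile scaling of all libraries it was higher by 0.42 (adjusted p = 0.0271).

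KRT10, a type I keratin of differentiated epidermis, rose in PANC-1 and PaTu 8988T. PANC-1 controls had 13.2, 13.6 and 12.2 FPKM and the knockdown libraries 18.3, 19.0 and 19.0 FPKM, a log2 fold change of 0.53 (SE 0.0496, adjusted p = 5.73e-06). PaTu 8988T controls had 17.6, 15.4 and 16.8 FPKM and the knockdown libraries 22.6, 20.3 and 23.2 FPKM, a log2 fold change of 0.40 (SE 0.0652, adjusted p = 0.0013). In both lines the groups were apart. In MIA PaCa-2 the controls had 7.30, 11.3 and 8.36 FPKM and the knockdown libraries 7.34, 6.61 and 5.75 FPKM, overlapping at the lower control. The log2 fold change was -0.43 (95% interval -0.86 to 0.00, adjusted p = 0.1), and -0.25 without control replicate 2 (adjusted p = 0.0482). KRT17 had 13 to 26 reads summed over the 3 libraries of each PANC-1 and MIA PaCa-2 group and 10 in each PaTu 8988T group, and its groups overlapped in every line.

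Counted together, 3 of 7 tested members rose in PANC-1 (KRT8, KRT10, KRT80) and 2 fell (KRT18, KRT19), against 40.1% of all 10902 tested genes that rose and 32.2% that fell. In MIA PaCa-2, 0 of 5 rose (and 0 at an unadjusted p below 0.05) and 2 fell (KRT8, KRT80), against 18.7% and 21.7% of 10758 genes. In PaTu 8988T, 2 of 4 rose (KRT10, KRT80) and 2 fell (KRT8, KRT18), against 20.9% and 18.5% of 10698 genes. The median log2 fold change of the tested members was 0.18 in PANC-1, -0.43 in MIA PaCa-2 and 0.05 in PaTu 8988T, beside 0.06, -0.03 and 0.03 over all tested genes. The libraries of the groups were apart for 5 of 7, 3 of 5 and 4 of 4 tested members, and for 75.0%, 59.3% and 51.9% of all tested genes. At the study's threshold of an adjusted p below 0.05 and a change over 2-fold, 0 tested members were called by limma in any line, and the counts at the adjusted p alone were the 5, 2 and 4 given above. Of all tested genes, 1.75% were past that threshold upwards and 4.84% downwards in PANC-1, 4.07% upwards and 3.68% downwards in MIA PaCa-2, and 0.159% upwards and 0.841% downwards in PaTu 8988T. The limma-voom fit on reads, which tested more low genes, put 1 member past the threshold in each line, KRT86 in PANC-1, KRT81 in MIA PaCa-2 and KRT7 in PaTu 8988T. These were 1 of 8, 1 of 8 and 1 of 5 members in that fit, where 10.4% of 13131 genes, 11.4% of 13969 and 3.00% of 13973 were past the threshold.

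**Figure D3:**
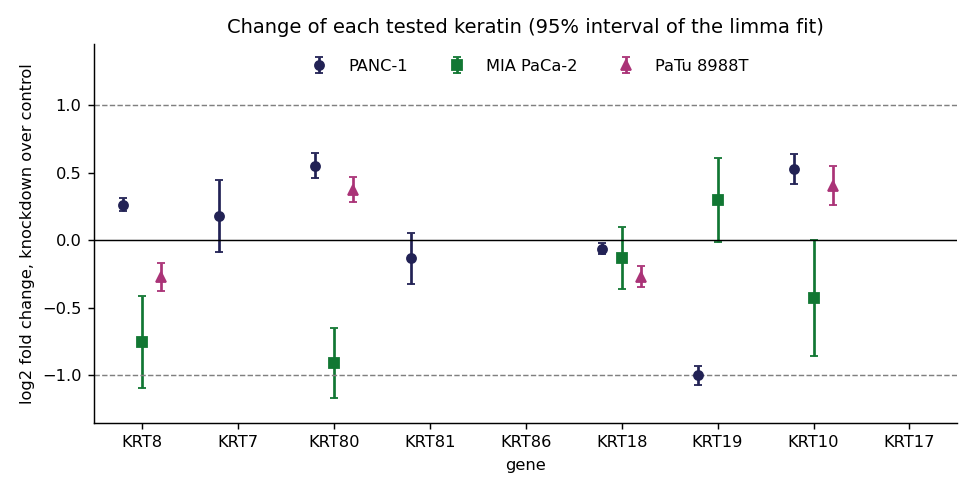
Log2 fold change of knockdown over control for each member tested in a line, with the 95% interval of the limma fit from 3 against 3 libraries, and dashed lines at a 2-fold change. KRT8 lies above 0 in PANC-1 only, KRT80 and KRT10 lie above 0 in PANC-1 and PaTu 8988T and below 0 in MIA PaCa-2, where the interval of KRT10 reaches 0, and KRT19 in PANC-1 lies at -1.0. KRT86 and KRT17 have no points because no line's mean reached 1 FPKM.

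The levels of type II and type I keratins were also summed and set against each other. Summed over the members, PANC-1 libraries held 982 ± 13.4 FPKM in the controls and 983 ± 12.1 FPKM after knockdown (SD, n = 3 each), so the total differed by less than the spread between libraries. Within that total, type II keratins went from 458 ± 8.49 to 556 ± 9.98 FPKM and type I from 524 ± 4.97 to 427 ± 4.27 FPKM (SD, n = 3 each). The ratio of type II to type I was 0.882, 0.876 and 0.865 in the controls and 1.33, 1.31 and 1.28 in the knockdown libraries. In MIA PaCa-2 the ratio moved the other way, from 1.06, 1.18 and 1.04 to 0.681, 0.686 and 0.672. The control libraries of both lines were apart from the knockdown libraries, on opposite sides. In PaTu 8988T the ratio was 0.820, 0.811 and 0.852 in the controls and 0.803, 0.860 and 0.847 after knockdown, so the groups overlapped. There the summed level was lower after knockdown, at 931 ± 36.1 FPKM against 1097 ± 12.6 FPKM (SD, n = 3 each). These sums and ratios are a description of the chosen members and were not tested.

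**Figure D4:**
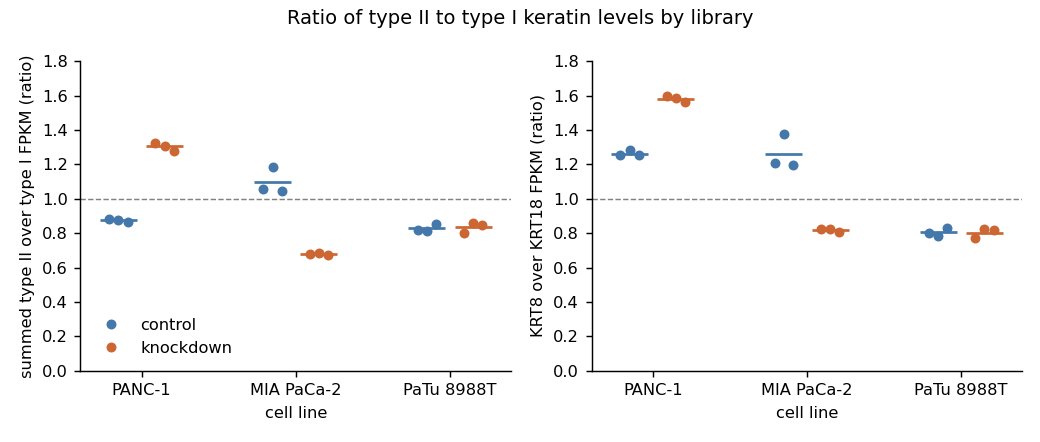
Ratio of summed type II to summed type I FPKM (left) and of KRT8 to KRT18 FPKM (right) in each library, by line, with control in blue, knockdown in orange and bars at group means. The left ratio is above 1 after knockdown in PANC-1 (mean 1.30), below 1 after knockdown in MIA PaCa-2 (0.680) and near 0.83 in both PaTu 8988T groups.

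For KRT8 and KRT18 alone, the groups were likewise apart in PANC-1 and MIA PaCa-2 and overlapped in PaTu 8988T. The mean ratio of KRT8 to KRT18 was 1.26 ± 0.0167 in PANC-1 controls and 1.58 ± 0.0194 after knockdown, 1.26 ± 0.0994 and 0.818 ± 0.0098 for MIA PaCa-2, and 0.805 ± 0.023 and 0.803 ± 0.0297 for PaTu 8988T (SD, n = 3 each). Within the members' total, KRT19 took 18.1% ± 0.543 of PANC-1 control FPKM and 9.07% ± 0.315 after knockdown, while KRT8 went from 42.8% ± 0.179 to 51.2% ± 0.512 (SD, n = 3 each). In MIA PaCa-2 the members' total itself went from 1833 ± 338 to 1387 ± 16.9 FPKM (SD, n = 3 each), so the shares after knockdown are of a smaller total. As shares, KRT19 went from 6.34% ± 0.109 to 10.2% ± 0.239 and KRT18 from 40.9% ± 1.75 to 48.9% ± 0.329, with KRT8 down from 51.5% ± 1.77 to 39.9% ± 0.258 (SD, n = 3 each). In FPKM, KRT18 had means of 746 and 677 there, and neither KRT18 nor KRT19 passed the test in that line. As shares of the keratin total, the KRT19 values of MIA PaCa-2 control replicate 2 and its fellow controls lay between 6.22% and 6.44%, below the 9.95% to 10.4% of the knockdown libraries.

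**Figure D5:**
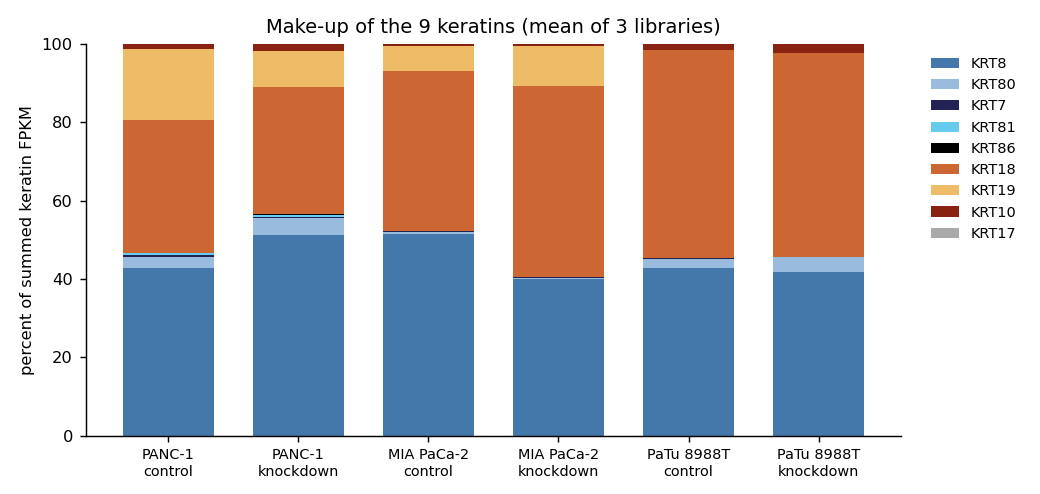
Share of each keratin in the summed FPKM of the 9 members, as the mean of 3 libraries per group, with type II keratins stacked at the bottom in blue shades and black and type I above in orange, brown and grey. The share of KRT19 goes from 18.1% to 9.07% in PANC-1 and from 6.34% to 10.2%, of a smaller total, in MIA PaCa-2. KRT19 is missing in PaTu 8988T, where KRT18 takes 53.2% and 52.1%.

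Whether a member's change differed between lines was tested as an interaction in 1 fit of all 18 libraries over the 9083 genes with a mean of at least 1 FPKM in each line, which include KRT8, KRT10, KRT18 and KRT80. Between PANC-1 and MIA PaCa-2, the changes of 3 of these 4 members differed, by 1.01 for KRT8 (SE 0.136, adjusted p = 2.64e-05), 0.96 for KRT10 (SE 0.174, adjusted p = 0.000398) and 1.46 for KRT80 (SE 0.0959, adjusted p = 1.76e-08), all on the log2 scale and all higher in PANC-1. Of all genes in this fit, 43.4% differed. Between MIA PaCa-2 and PaTu 8988T the same 3 members differed, by -0.48 for KRT8 (adjusted p = 0.00771; -0.30 without MIA PaCa-2 control replicate 2, adjusted p = 2.98e-05), -0.83 for KRT10 (adjusted p = 0.000856) and -1.28 for KRT80 (adjusted p = 2.96e-08), against 52.9% of all genes. Between PANC-1 and PaTu 8988T only KRT8 differed at this threshold, by 0.54 (adjusted p = 0.00608), against 35.8% of all genes. For KRT10 that difference was 0.13 (95% interval -0.24 to 0.50) and for KRT80 0.18 (95% interval -0.03 to 0.38), and neither passed. The change of KRT18 did not pass for any pair, with differences of 0.07, 0.21 and 0.14.

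The spread of the 18-library fit is shared with MIA PaCa-2 control replicate 2. Without that library, the differences of KRT18 (0.21, adjusted p = 1.15e-05) and KRT80 (0.18, adjusted p = 0.0128) between PANC-1 and PaTu 8988T passed as well, and so did that of KRT18 between MIA PaCa-2 and PaTu 8988T (0.25, adjusted p = 1.58e-06). In fits of the 12 libraries of 2 lines, KRT19 could be compared between PANC-1 and MIA PaCa-2, and its change was lower in PANC-1 by 1.30 on the log2 scale (SE 0.141, adjusted p = 5.6e-05), where 35.4% of 9553 genes differed. The 12-library fit of PANC-1 and PaTu 8988T called KRT8, KRT18 and KRT80, with 56.7% of its 9593 genes, and that of MIA PaCa-2 and PaTu 8988T called KRT8, KRT10 and KRT80, with 45.7% of its 9647 genes.

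Beyond the members, the table held 40 other keratin symbols and no numbered keratin pseudogene. The 9 members made up 99% of all keratin FPKM in PANC-1 controls, 97.7% in MIA PaCa-2 controls and 99.9% in PaTu 8988T controls. Of these 40, KRT13, KRT15 and KRT75 averaged 1 FPKM or more in at least 1 line. KRT15, a type I keratin of basal epithelium, had 9.84, 7.44 and 8.65 FPKM in PANC-1 controls and 4.51, 5.81 and 4.08 FPKM after knockdown, a fall of 0.84 on the log2 scale (adjusted p = 0.00023). The MIA PaCa-2 levels fell from 17.1, 21.9 and 17.6 FPKM to 13.8, 13.5 and 13.8 FPKM, by 0.45 on the log2 scale (adjusted p = 0.0207). Both of these comparisons had groups that did not overlap. KRT13, a type I keratin of mucosal epithelium, had 20.7, 29.8 and 18.3 FPKM in MIA PaCa-2 controls and 17.7, 19.6 and 20.4 FPKM after knockdown, overlapping (log2 fold change -0.23, adjusted p = 0.355), and at most 1 read in any library of the other lines. KRT75, a type II keratin of the hair follicle, rose in PANC-1 from 0.845, 0.922 and 0.817 FPKM to 3.08, 2.74 and 2.69 FPKM, a log2 fold change of 1.61 (adjusted p = 7.04e-07), and passed the filter there only through its knockdown libraries.

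Genes of the structures that hold keratin filaments were counted by line. Their counts stand beside the shares of all tested genes, 40.1% higher and 32.2% lower in PANC-1, 18.7% and 21.7% for MIA PaCa-2, and 20.9% and 18.5% for PaTu 8988T. Of the desmosome list of 14 genes, 3 of 8 tested rose and 2 fell in PANC-1, 2 of 6 rose and 2 fell in MIA PaCa-2, and 2 of 8 rose and 3 fell in PaTu 8988T. PKP3, a plakophilin of the desmosomal plaque, fell by 1.09 on the log2 scale in PANC-1 (adjusted p = 1.55e-06) and by 1.21 in MIA PaCa-2 (adjusted p = 0.00869). DSP, desmoplakin, which binds keratin filaments to the plaque, rose by 0.57 in PANC-1 (adjusted p = 1.20e-05) and 0.43 in MIA PaCa-2 (adjusted p = 0.0282). PKP4, another plakophilin, fell by 0.47 in MIA PaCa-2 (adjusted p = 0.015) and rose by 0.53 in PaTu 8988T (adjusted p = 1.67e-05). In PaTu 8988T the plaque protein JUP fell by 0.69 (adjusted p = 4.04e-05) and the desmosomal cadherin DSG2 fell by 0.56 (adjusted p = 3.36e-05).

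In the list of plakins and hemidesmosome proteins, 5 of 6 tested genes fell and 1 rose in PANC-1. For PaTu 8988T, 6 of 7 fell and 0 rose. Of all tested genes, 32.2% fell in PANC-1 and 18.5% in PaTu 8988T. In MIA PaCa-2, 4 of 7 genes of the list rose and 0 fell, against 18.7% of all tested genes that rose. Of these 4, ITGB4 passed the filter there only through its knockdown libraries. ITGB4, the integrin subunit that binds plectin, averaged 0.918 FPKM in MIA PaCa-2 controls and 2.92 after knockdown, and 29.9 and 13.6 FPKM in PaTu 8988T (log2 fold change -1.13, adjusted p = 1.04e-06). Its partner ITGA6 fell by 1.0 on the log2 scale in PANC-1 (adjusted p = 1.18e-09) and by 0.53 in PaTu 8988T (adjusted p = 6.55e-05). Periplakin (PPL) fell by 0.71 in PANC-1 (adjusted p = 4.3e-08) and by 0.43 in PaTu 8988T (adjusted p = 5.59e-05). DST rose by 0.54 in PANC-1 (adjusted p = 1.6e-07) and by 0.93 in MIA PaCa-2 (adjusted p = 0.00674). MACF1 rose by 0.82 in MIA PaCa-2 (adjusted p = 0.00273). The median log2 fold change of this list was -0.50 in PANC-1, 0.39 in MIA PaCa-2 and -0.41 in PaTu 8988T, beside 0.06, -0.03 and 0.03 over all tested genes.

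Regulators that bind keratins were lower in 4 of 7 tested genes and higher in 0 in PANC-1, lower in 3 of 7 and higher in 1 in MIA PaCa-2, and lower in 3 of 6 and higher in 0 in PaTu 8988T, where 32.2%, 21.7% and 18.5% of all tested genes were lower. CSNK1A1, casein kinase 1 alpha, which FAM83H recruits to keratin filaments, fell by 1.64 on the log2 scale in PANC-1 (adjusted p = 5.58e-10) and by 0.96 in MIA PaCa-2 (adjusted p = 0.000678). TCHP, trichoplein, a keratin-binding protein also found at the centriole, fell by 0.76 in PANC-1 (adjusted p = 4.15e-06) and 0.95 in MIA PaCa-2 (adjusted p = 0.000895). FAM83H itself fell by 0.57 in PaTu 8988T (adjusted p = 6.35e-05). Of the other intermediate filament genes, 0 of 5 tested rose and 5 fell in PANC-1, 1 of 6 rose and 3 fell in MIA PaCa-2, and 2 of 5 rose and 2 fell in PaTu 8988T, beside the same shares. Vimentin (VIM), the mesenchymal filament protein, went from 1401 to 793 FPKM in PANC-1, from 3512 to 4900 FPKM for MIA PaCa-2 and from 783 to 591 FPKM for PaTu 8988T, with adjusted p of 1.18e-10, 0.000388 and 4.29e-05. VIM therefore exceeded the summed keratins in MIA PaCa-2 and in PANC-1 controls.

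Markers of cell identity also moved between the groups. The summed FPKM of 7 pancreatic duct markers was 72.8 to 76.1 in PANC-1 controls and 77.4 to 79.3 after knockdown, 42.3 to 46.8 and 62.6 to 64.9 in MIA PaCa-2, and 16.7 to 18.1 and 10.3 to 11.5 in PaTu 8988T, where CFTR and TFF1 were at 0 in all libraries. The 10 epithelial markers summed to 129 to 134 FPKM in PANC-1 controls and 101 to 104 after knockdown, 9.62 to 15.8 and 20.8 to 23.4 in MIA PaCa-2, and 4.5 to 5.18 and 3.99 to 4.16 in PaTu 8988T. In PANC-1 the lower epithelial sum was mostly CLDN4 (68.4 FPKM in the controls, 38.7 after knockdown), while 3 of 6 tested markers of the list rose, such as EPCAM (6.05 and 8.53), and 2 fell. The higher epithelial sum in MIA PaCa-2 was mostly CLDN4 as well (6.48 and 17.6 FPKM). It was the 1 of 2 tested markers that rose there, and the other did not pass. Only 1 epithelial marker was tested in PaTu 8988T, and it did not pass. Of the 4 duct markers tested in PANC-1, 2 rose, with TFF1 at 1.91 and 8.18 FPKM, and 2 fell, with MUC1 at 9.23 and 6.81 FPKM. The sum of the 8 mesenchymal markers, mostly VIM, was 1412 to 1430 FPKM in PANC-1 controls and 805 to 827 after knockdown, 3480 to 3589 and 4785 to 4975 in MIA PaCa-2, and 781 to 814 and 593 to 625 in PaTu 8988T. Of the 5 mesenchymal markers tested in PANC-1, 1 rose, FN1 at 2.05 and 6.54 FPKM, 2 fell and 2 did not pass. Acinar, endocrine and endothelial markers reached a mean of 1 FPKM in 0 genes of any line. Of 5 immune markers, 1, 2 and 1 reached it in PANC-1, MIA PaCa-2 and PaTu 8988T, with CD3E at 0 throughout, and of 6 fibroblast markers 2, 2 and 1 did. The immune sum was 32 to 37.8 FPKM in PANC-1 controls and 17.0 to 19.6 after knockdown, 49.3 to 67.4 and 73.2 to 77.0 in MIA PaCa-2, and 13.6 to 13.9 and 9.77 to 11.7 in PaTu 8988T, nearly all of it CD68. The fibroblast sum was 35.3 to 37.2 and 40.3 to 40.7 FPKM in PANC-1, 158 to 188 and 234 to 236 in MIA PaCa-2, and 2.96 to 3.29 and 3.08 to 3.78 in PaTu 8988T. In PANC-1 the 2 tested fibroblast markers went opposite ways, COL3A1 up (10.2 and 17.8 FPKM) and COL1A1 down (26.1 and 22.3 FPKM). The part of any of these in the keratin changes was not tested.

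Over the 18 libraries, centred on the mean of each line, KRT80 and KRT10 had patterns that were alike (Pearson r = 0.85), as had KRT8 and KRT80 (r = 0.75), KRT8 and KRT18 (r = 0.68) and KRT8 and KRT10 (r = 0.56), while KRT18 had r = 0.06 with KRT80 and -0.03 with KRT10. Among the 9083 genes, those most like KRT8 were MEX3D (r = 0.97), RPTOR (0.96) and ADRA2C (0.96). Those most like KRT18 were B4GALNT4 (r = 0.97), FAM83H (0.97) and FMNL1 (0.95). KRT80 was followed most closely by ATP1B3 (r = 0.98), RRS1 (0.97) and SF1 (0.97), and KRT10 by BRD2 (r = 0.94), COPS9 (0.93) and VPS4A (0.93). These correlations describe libraries that share the same 6 groups and the same depth scaling, and control replicate 2 of MIA PaCa-2 enters all of them.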

How the data were processed

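The authors deposited 1 table of FPKM values for 18 libraries. Per the study's methods, total RNA was extracted with TRIzol, HISAT2 mapped the reads and HTSeq-count counted them, whereas the labels name an RNeasy kit and a SMARTer library kit. The genome builds in the submitters' notes are hg38, GRCm38 and mm10 with no role given, and the annotation and strandedness are not given in the sources used here. Sample titles set the groups, including 2 PaTu 8988T replicates per group whose source labels name other lines. Reads were inferred from the deposited FPKM values of every gene above 0. They are the smallest counts that were whole, within a tolerance of 0.001, in all libraries of a line. Counts that share a common factor in all libraries of a line would thus be understated. Of the gene lengths checked, 98.5% came out whole in PANC-1, 98.4% in MIA PaCa-2 and 98.1% in PaTu 8988T.

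For each line, log2(FPKM + 0.1) of the genes averaging 1 FPKM or more was fitted by trended eBayes in limma 3.58.1 (R 4.3.3) and Benjamini-Hochberg adjustment, so fold changes of low genes are understated. With 3 libraries against 3, an exact permutation test cannot give p below 0.1. Interactions were fitted over all 18 libraries. The fits were tested on simulated data. Alternatives were pseudocounts of 1 and 0.01, no filter, a filter of 5 FPKM, median-of-ratios and upper-quartile scaling, no variance trend, a replicate block, leaving out each library and, chosen after the data were seen, limma-voom on reads with a mean of at least 10, fits of 12 libraries and unfiltered fits of low members. Positions and coding sequences came from GENCODE v29 and were aligned with Biopython 1.88.

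All 9 members were named, with OFD1, other keratins at a mean of at least 1 FPKM, up to 3 genes per list and line by smallest p, and for members tested in all lines the 3 genes with the highest Pearson r. The members and lists were chosen with earlier results of these data known.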

Additional observations from a re-analysis of the deposited data

Results flagged for a closer look

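The changes of KRT8, KRT10 and KRT80 differed between lines by the interaction term of the 18-library limma fit. For KRT8 the log2 fold change was higher in PANC-1 than in MIA PaCa-2 by 1.01 (adjusted p = 2.64e-05), higher in PANC-1 than in PaTu 8988T by 0.54 (adjusted p = 0.00608), and the difference of MIA PaCa-2 from PaTu 8988T was -0.48 (adjusted p = 0.00771), or -0.30 without MIA PaCa-2 control replicate 2 (adjusted p = 2.98e-05). For KRT10 it was higher in PANC-1 than in MIA PaCa-2 by 0.96 (adjusted p = 0.000398), and the difference of MIA PaCa-2 from PaTu 8988T was -0.83 (adjusted p = 0.000856). For KRT80 these differences were 1.46 (adjusted p = 1.76e-08) and -1.28 (adjusted p = 2.96e-08). KRT80 and KRT8 moved in opposite directions within PaTu 8988T and in the same direction within PANC-1 and MIA PaCa-2.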

How the results depend on the processing

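Of 589 values of single genes under alternatives, 569 kept their direction and their side of the threshold, 10 came to pass it, 3 no longer passed it and 7 changed sign. The sign changes belonged to KRT7 in MIA PaCa-2, which was 0.00 with no filter and ranged from -0.17 to 0.26 when 1 library was left out (-0.0084 with a pseudocount of 1), and to the difference of KRT18 between PANC-1 and MIA PaCa-2, which was -0.032 with median-of-ratios scaling and ranged from -0.043 to 0.12 when 1 library was left out. None of these passed the test. Counts past the adjusted p alone were 5, 2 and 4 in PANC-1, MIA PaCa-2 and PaTu 8988T, and leaving out 1 library gave 4 to 6, 2 to 4 and 4 to 4, where the 4 in MIA PaCa-2 came without control replicate 2. Counts past 2-fold were 0 in each line. In PANC-1 the count was 1 with no filter (KRT86), with median-of-ratios scaling (KRT19) and with limma-voom (KRT86), and 0 to 2 when 1 library was left out. KRT19 lay at the threshold, between -1.02 and -0.97 on the log2 scale when 1 library was left out. KRT86, with a mean of 0.915 FPKM, entered the filtered test only when a control was left out, and so only through its knockdown libraries. In MIA PaCa-2 it was 1 with no filter and with limma-voom, and in PaTu 8988T 1 with limma-voom. The number of members whose change differed was 3 between PANC-1 and MIA PaCa-2 and 6 with no filter, 3 between MIA PaCa-2 and PaTu 8988T and 5 with no filter, and 1 between PANC-1 and PaTu 8988T, 4 with no filter, 3 in the 12-library fit and 1 to 3 when 1 library was left out, with 3 without MIA PaCa-2 control replicate 2. More genes are tested with no filter, among them members near 0 in a line, such as KRT19 in PaTu 8988T. Of all genes in the filtered 18-library fit, 43.4%, 52.9% and 35.8% differed for these pairs in the order given. No such share is given for the unfiltered fits, so their counts have no background beside them. Causes of the other shifts in these counts were not tested.

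The replicate numbers were shared by the groups, but same-numbered libraries did not deviate together, with correlations from -0.11 to 0.13 over 9 pairs. With the replicate number as a block, 5, 2 and 4 members passed the adjusted p, and every count was the same as without it.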
